A study of Zea mays with 4 samples.

Results

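The wild-type endosperm transcriptome of maize (Zea mays) at 10 days after pollination was described from 2 of the 4 libraries in the series, pools A and B of the wild-type genotype. The members were chosen by their genotype label alone, and the other 2 libraries, from endosperm of a mutant labelled dek, were not used. Each pool combined endosperm of 8 to 10 individuals, taken from ears on which wild-type and mutant kernels segregated. The sources used here give neither the maize line, nor which ear supplied which pool, nor whether poly(A) RNA was selected. RNA was extracted by a CTAB method, in which a detergent separates nucleic acids from polysaccharides, and Illumina protocols served for library making.

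The endosperm is the nourishing tissue of the cereal kernel. Its inner cells, the starchy endosperm, fill with starch granules and with protein bodies made of zeins, the alcohol-soluble storage proteins of maize. An outer aleurone layer, a basal transfer layer that takes up sugars and amino acids from the mother plant, and an embryo-surrounding region complete the tissue. In maize, storage synthesis sets in while cells of the outer layers are still dividing.

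Estimated counts, the reads that the authors' software assigned to each gene, summed to 14562359 in pool A and 13119658 in pool B. A value above 0 was listed for 30452 genes in pool A and 29569 in pool B, and 27996 genes were listed in both. The 2456 genes listed in pool A alone had a median of 2 counts there, and the 1573 listed in pool B alone had a median of 1.05. FPKM, the authors' counts scaled to gene length and to the total of counted fragments, was at least 1 for 21085 genes in pool A and 20872 in pool B, with 19849 genes in both. At least 1000 FPKM was reached by 60 genes in pool A and 58 in pool B, 51 of them shared. Values are given below for both pools, and no test was run because the comparison is of 1 library with 1 library. Nothing says whether the pools differed in ear, in the cells they held or in library preparation, and these cannot be told apart.

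A small number of genes held much of the RNA. The first 50% of counts came from 735 genes in pool A and 792 in pool B. The 10 most abundant genes took 10.8% of the counts in pool A and 9.35% in pool B, and the 100 most abundant took 27.8% in pool A and 26.04% in pool B. Of the 100 genes of highest FPKM in each pool, 92 were the same.

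Genes were sorted into 29 classes by keywords in their protein description and, where that named nothing, in their KEGG orthology entry. Of the named classes, cytosolic ribosomal proteins, the structural proteins of the translating ribosome, held the highest share of counts, with 8.32% in pool A and 8.51% in pool B over 440 genes. Glycolysis, fermentation and pyruvate orthophosphate dikinase (PPDK) followed with 8.14% in pool A and 7.003% in pool B over 171 genes. Zeins held 6.35% in pool A and 6.002% in pool B from only 31 genes (mean 6.18% ± 0.249, SD, n = 2), and starch synthesis held 3.21% in pool A and 2.85% in pool B from 64 genes. By mean share, 4 classes stood between zeins and starch synthesis. RNA processing and pentatricopeptide repeat genes held 4.94% in pool A and 4.72% in pool B. Translation factors and aminoacyl-tRNA synthetases held 4.55% in pool A and 4.36% in pool B. Ubiquitin and proteasome genes held 3.37% in pool A and 3.62% in pool B. Heat shock proteins and other chaperones held 2.82% in pool A and 3.41% in pool B.

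Counts favour long genes, and the FPKM share, which divides by length, ordered the classes differently. By FPKM, ribosomal proteins of the cytosol held 12.3% in pool A and 12.6% in pool B, zeins 9.03% in pool A and 8.59% in pool B, and starch synthesis 1.90% in pool A and 1.69% in pool B. Genes with uncharacterised proteins were the largest class by number, with 14659 genes and 22.6% of counts in pool A and 22.5% in pool B. Photosynthesis genes held 0.0351% of counts in pool A and 0.0433% in pool B, the lowest share of the 29 classes, in a tissue that carries non-green amyloplasts. Counting error was small beside these values, with a 95% Wilson interval of at most 0.0226 percentage points either side of a share. It covers counting error only. The shares of 22 of the 29 classes differed by under 10% between the pools, and those of 2, the basal transfer layer peptides and the organelle ribosomal proteins, by over 1.5-fold.

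**Figure D1:**
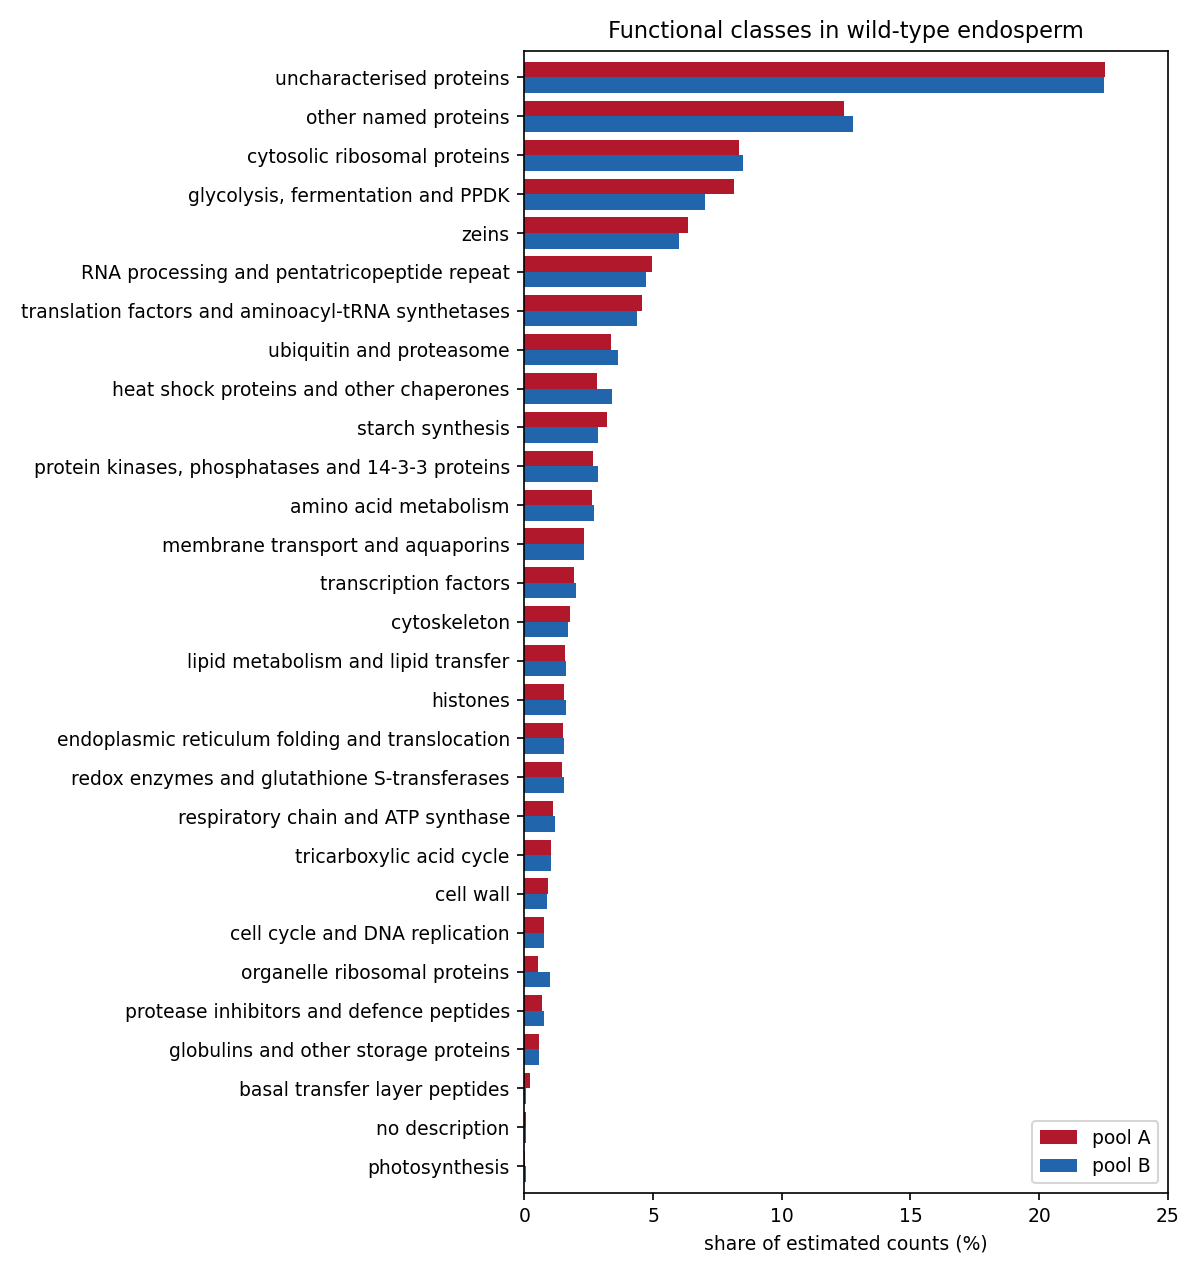
Share of estimated counts (%) held by each of 29 functional classes in pool A (red, upper bar) and pool B (blue, lower bar) of wild-type endosperm. Cytosolic ribosomal proteins (8.32% in pool A, 8.51% in pool B) and zeins (6.35% in pool A, 6.002% in pool B) stand among the highest named classes, and the bars of the pools are close in most classes.

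The single most abundant transcript encoded a storage protein. The gamma zein gz27 (GRMZM2G138727), whose protein forms the shell of the protein body, had 15549 FPKM in pool A and 14900 in pool B, and alone held 2.52% of the counts in pool A and 2.32% in pool B. The beta zein zp15 (GRMZM2G086294, also called bz15) had 11710 FPKM in pool A and 10014 in pool B. The delta zein dzs10 (BGI_novel_G003037), a methionine-rich zein, had 11280 FPKM in pool A and 9936 in pool B. It is one of the genes that the authors added to the reference gene models. Together these 3 genes made up 66.3% of the zein counts in pool A and 63.1% in pool B.

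Of the 25 genes of highest mean FPKM, 8 were zeins, 6 belonged to glycolysis, fermentation and PPDK, and 2 to starch synthesis. They held 16.3% of the counts in pool A and 14.4% in pool B. Outside these classes, a glycine-rich RNA-binding protein (GRMZM2G080603) reached 10034 FPKM in pool A and 8609 in pool B, the fourth rank of all genes. An uncharacterised protein with a predicted precursor form (GRMZM2G046532), which carries no KEGG entry, ranked seventh with 6322 FPKM in pool A and 4365 in pool B. A peptidyl-prolyl isomerase (GRMZM2G326111), an enzyme that helps proteins fold, had 3592 FPKM in pool A and 3839 in pool B. A metallothionein (GRMZM2G052869), a metal-binding protein, had 3332 FPKM in pool A and 3213 in pool B. A trypsin/factor XIIA inhibitor (GRMZM2G304548) had 2759 FPKM in pool A and 3104 in pool B, and legumin 1 (GRMZM2G174883), a globulin-type storage protein, had 2695 FPKM in pool A and 2588 in pool B. The 1 transcription factor of this group was fl3 (GRMZM2G006585), a PLATZ-domain protein, with 2496 FPKM in pool A and 1700 in pool B. All 25 genes differed by less than 2-fold between the pools, the largest log2 difference being 0.58, and 20 of them were the higher in pool A by scaled counts.

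**Figure D2:**
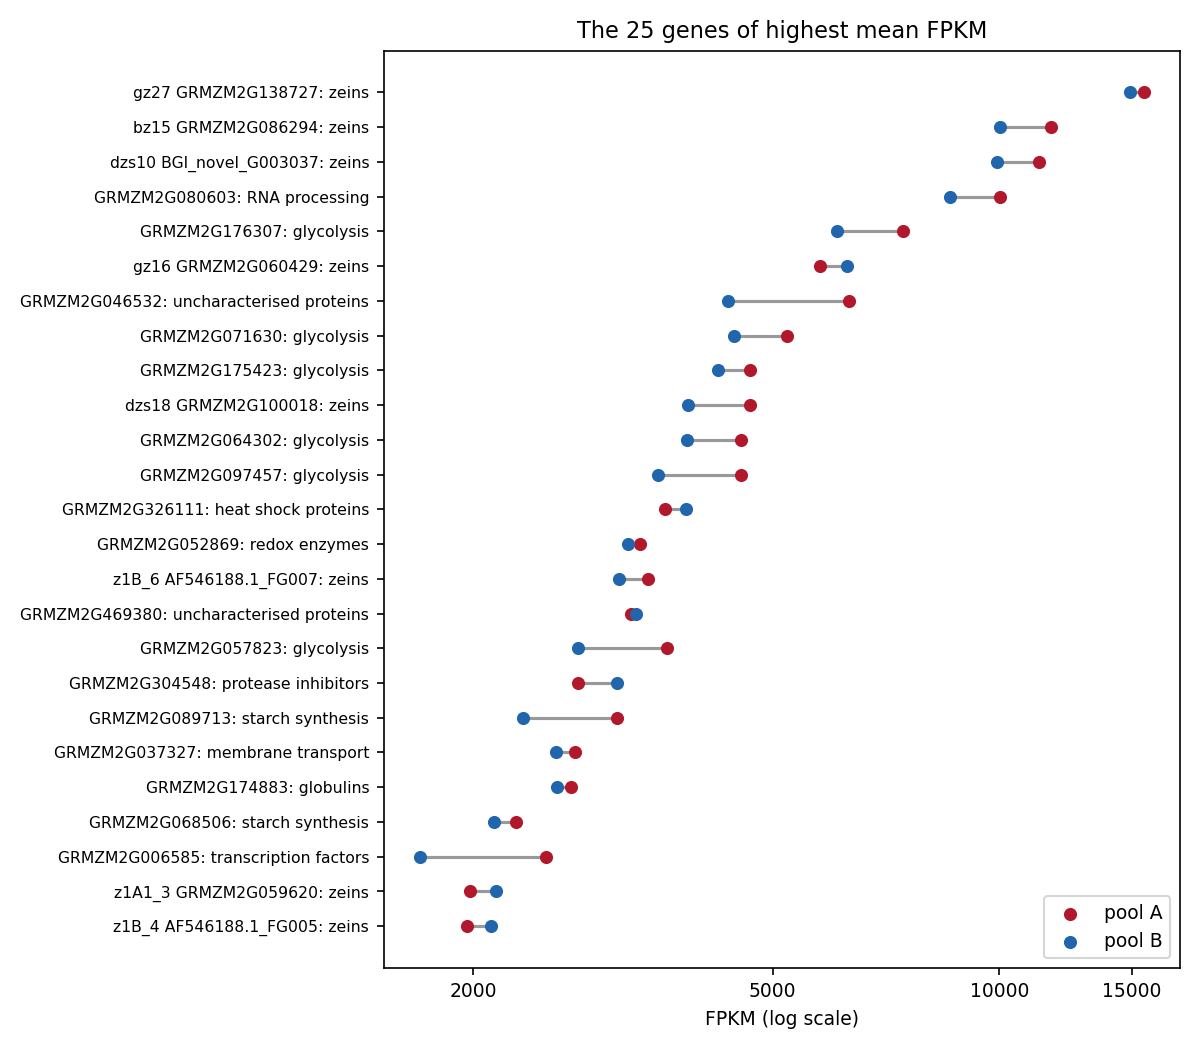
FPKM (log scale) of the 25 genes of highest mean FPKM in pool A (red) and pool B (blue), each labelled with its symbol where RefSeq gives one, its gene model and its class. The zein gz27 leads with 15549 FPKM in pool A and 14900 in pool B, and every pair of points lies within 2-fold.

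The zein families stood at different levels. Summed over members, the 3 gamma zeins had 21560 FPKM in pool A and 21436 in pool B, the 2 delta zeins 15939 in pool A and 13799 in pool B, and the 1 beta zein the value given above. The 15 alpha zeins of the z1A, z1B and z1D subfamilies (19-kDa) reached 13261 FPKM in pool A and 13518 in pool B. The 10 of the z1C subfamily (22-kDa) reached only 1188 FPKM in pool A and 1667 in pool B. Alpha zeins fill the core of the protein body. The highest of them was z1B_6 with 3414 FPKM in pool A and 3122 in pool B. Among the z1C genes, z1C1_4 (GRMZM2G044625) led with 450 FPKM in pool A and 572 in pool B, and fl2 (GRMZM2G397687, z1C2) had 146 FPKM in pool A and 244 in pool B. The gamma zein gz50 (GRMZM2G138689) was far below the other gamma zeins, with 228 FPKM in pool A and 268 in pool B, while zp16 (GRMZM2G060429, also called gz16) had 5783 in pool A and 6268 in pool B. Of the 25 alpha zein genes, 20 had counts that were not whole numbers in a pool, as estimates are when reads are shared between copies, so the split between single alpha zein genes is uncertain.

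**Figure D3:**
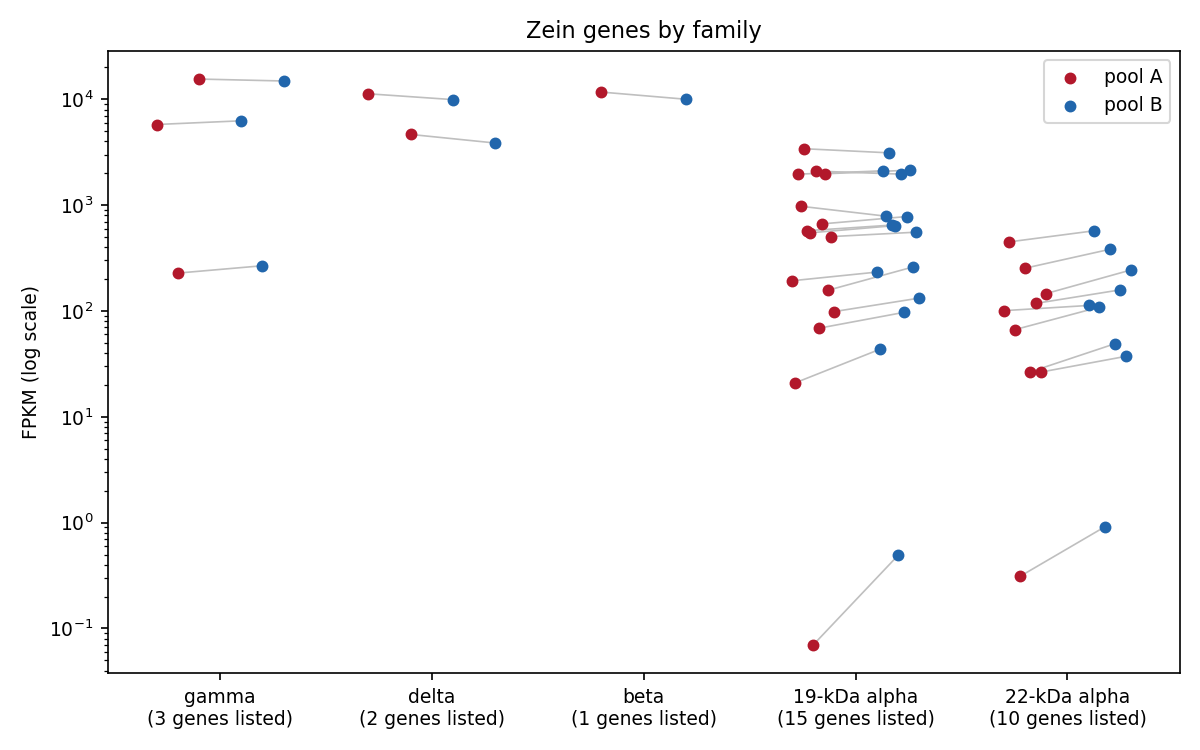
FPKM (log scale) of zein genes by family, with pool A (red) left of pool B (blue) and a grey line joining the values of a gene; a gene at 0 in a pool is not drawn. Apart from gz50, the gamma, delta and beta genes lie above the alpha genes, and the genes of the 22-kDa family, which sum to 1188 FPKM in pool A and 1667 in pool B, each sit higher in pool B.

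Starch is made from sucrose in several enzyme steps. At 5 of the 7 steps listed, 1 gene supplied 76.76% or more of the summed FPKM in both pools. Genes were sorted into steps by keyword. The branching step therefore also holds 2 debranching enzymes (GRMZM2G158043 and GRMZM2G150796) and models of a protein that interacts with branching enzyme. The highest of these misplaced genes (GRMZM2G091494) had 9.86 FPKM in pool A and 13.2 in pool B. Sucrose synthase, which releases UDP-glucose from sucrose, summed to 3439 FPKM in pool A and 2645 in pool B over 6 genes. Its endosperm form sh1 (GRMZM2G089713) supplied 90.2% of this in pool A and 88.0% in pool B, with 3102 FPKM in pool A and 2328 in pool B. The paralog sus1 (GRMZM2G152908) had 189 FPKM in pool A and 190 in pool B, and sus2 (GRMZM2G318780) 91.2 in pool A and 76.8 in pool B.

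ADP-glucose pyrophosphorylase makes the glucose donor of starch and joins a small and a large subunit. The small subunit gene bt2 (GRMZM2G068506) had 2279 FPKM in pool A and 2134 in pool B, and the large subunit gene sh2 (GRMZM2G429899) had 1811 in pool A and 1686 in pool B. Levels of bt2 were 28.05 times those of the embryo form of the small subunit (GRMZM2G106213) in pool A and 27.15 times in pool B. The ADP-glucose transporter bt1 (GRMZM2G144081), which carries the product into the amyloplast, had 1993 FPKM in pool A and 1749 in pool B. These 3 genes lay within 1.5-fold of each other in each pool.

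Among the polymerising enzymes, the granule-bound starch synthase wx1 (GRMZM2G024993), which makes amylose, had 1157 FPKM in pool A and 933 in pool B. The branching enzyme ae1 (GRMZM2G032628) had 917 FPKM in pool A and 962 in pool B. The soluble synthases were lower, with 211 FPKM in pool A and 193 in pool B for ss1 (GRMZM2G129451), 128 in pool A and 137 in pool B for sugary2 (GRMZM2G348551), and 68.2 in pool A and 71.9 in pool B for du1 (GRMZM2G141399). The debranching isoamylase su1 (GRMZM2G138060) had 171 FPKM in pool A and 150 in pool B, and the phosphorylase pho1 (GRMZM2G074158) 508 in pool A and 459 in pool B. Of the 51 starch genes compared between the pools, 2 differed by 2-fold or more, both higher in pool A, beside 7.42% of all genes compared.

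Carbon metabolism was led by genes of glycolysis. The glyceraldehyde-3-phosphate dehydrogenase GAPC4 (GRMZM2G176307) had 7440 FPKM in pool A and 6093 in pool B, and its paralog GAPC3 (GRMZM2G071630) had 5225 in pool A and 4439 in pool B. All 7 genes with that KEGG entry held 1.95% of counts in pool A and 1.66% in pool B. Sorbitol dehydrogenase (GRMZM2G175423), which oxidises sorbitol to fructose, had 4662 FPKM in pool A and 4226 in pool B. Enolase 1 (GRMZM2G064302) had 4533 FPKM in pool A and 3852 in pool B.

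PPDK, which converts pyruvate and phosphoenolpyruvate into each other and is best known from C4 photosynthesis, was the second most abundant gene by count. Its leading gene (GRMZM2G097457) had 200212 counts in pool A and 141542 in pool B, or 4532 FPKM in pool A and 3524 in pool B. The other PPDK gene (GRMZM2G306345) had 1290 FPKM in pool A and 1508 in pool B. Alcohol dehydrogenase 1 (GRMZM2G442658), an enzyme of fermentation, had 2107 FPKM in pool A and 1428 in pool B. Aldolase 1 (GRMZM2G057823) had 3618 FPKM in pool A and 2760 in pool B. Most leading members were the higher in pool A, but of the 131 genes of the class compared, 72 were above and 59 below a log2 difference of 0.

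The building of proteins left a broad rather than a concentrated signal. The 3 cytosolic ribosomal protein genes of highest count held only 4.60% of their class, and 227 members stood among the 1000 genes of highest FPKM. The 60S protein L10a-1 (GRMZM2G144387) had 1237 FPKM in pool A and 1343 in pool B. Genes for elongation factor 1-alpha, which brings aminoacyl-tRNA to the ribosome, numbered 46 and held 1.09% of counts in pool A and 0.959% in pool B. In the endoplasmic reticulum, where zeins are folded and deposited, protein disulfide isomerase (GRMZM2G091481) led with 1610 FPKM in pool A and 1338 in pool B.

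Amino acid metabolism held 2.61% of counts in pool A and 2.70% in pool B. It was led by genes described only by KEGG entry, a tryptophan aminotransferase (GRMZM2G127160) with 1742 FPKM in pool A and 1753 in pool B, an aspartate aminotransferase (GRMZM2G094712) with 1441 in pool A and 1424 in pool B, and an asparagine synthase (GRMZM2G003762) with 1274 in pool A and 1486 in pool B. The first makes indole-3-pyruvate, a precursor of auxin. A tonoplast aquaporin (GRMZM2G037327), a water channel of the vacuole, had 2735 FPKM in pool A and 2578 in pool B.

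Transcription factors formed a class of 1492 genes with 1.92% of counts in pool A and 1.99% in pool B. Among the regulators of storage genes, opaque-2 (o2, GRMZM2G015534), a bZIP activator of zein genes, had 87.4 FPKM in pool A and 203 in pool B. Its partner pbf1 (GRMZM2G146283), a Dof factor that binds the prolamin box, had 72.8 FPKM in pool A and 77.7 in pool B. The o2-related bZIP genes were lower, with 20.4 FPKM in pool A and 20.5 in pool B for ohp1 (GRMZM2G016150), and 13.9 in pool A and 16.3 in pool B for ohp2 (GRMZM2G007063). The aleurone regulator nkd1 (GRMZM2G129261) had 162 FPKM in pool A and 248 in pool B, and nkd2 (GRMZM5G884137) 60.6 in pool A and 76.8 in pool B. Of these 6 genes only o2 differed by 2-fold, with a log2 difference of pool A over pool B of −1.18 and a counting interval of −1.26 to −1.11. Among the zeins, all 8 z1C genes compared were lower in pool A, with a median of −0.52, and fl2 had −0.72. Of the 14 alpha zeins of 19 kDa compared, 11 were lower too, but their median was only −0.13. All genes compared had a median of −0.01 and an SD of 0.67. Of the 3 gamma zeins, zp16 (−0.09) and gz50 (−0.21) were slightly lower and gz27 (0.14) slightly higher. The 2 delta zeins and the 1 beta zein were higher in pool A. The zein class as a whole held 6.35% of counts in pool A and 6.002% in pool B. Counts were not whole for 9 of the 10 z1C genes, so these are not separate observations. A link between o2 and zein levels was not tested.

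The difference between the pools was taken as the log2 ratio of pool A over pool B after TMM scaling, which sets the bulk of genes to equal, with 1 count added, over 20841 genes with a mean of at least 20 counts. The median was −0.01 and the SD over genes 0.67. A difference of 2-fold or more was found for 1546 genes, 7.42% of those compared, with 848 (4.07%) higher and 698 (3.35%) lower in pool A. Low counts weighed on this number, because 18.8% of the genes with 20 to 50 counts passed 2-fold, against 2.19% of those with 1000 or more. In that top range the median counting SD of a log2 ratio was 0.0487. The observed SD over genes was 0.37, an unlike measure that single large differences raise, and the median absolute log2 difference was 0.124. Across genes, log2 counts of the pools correlated at r = 0.94 (n = 20841 genes of the same 2 libraries, a description). Among the 1000 genes of highest FPKM, 40 passed 2-fold, 28 of them higher and 12 lower in pool A. A count of 0 in pool B was found for 41 of the genes compared and in pool A for 19, which fixes no fold beyond the limit of 3 counts.

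**Figure D4:**
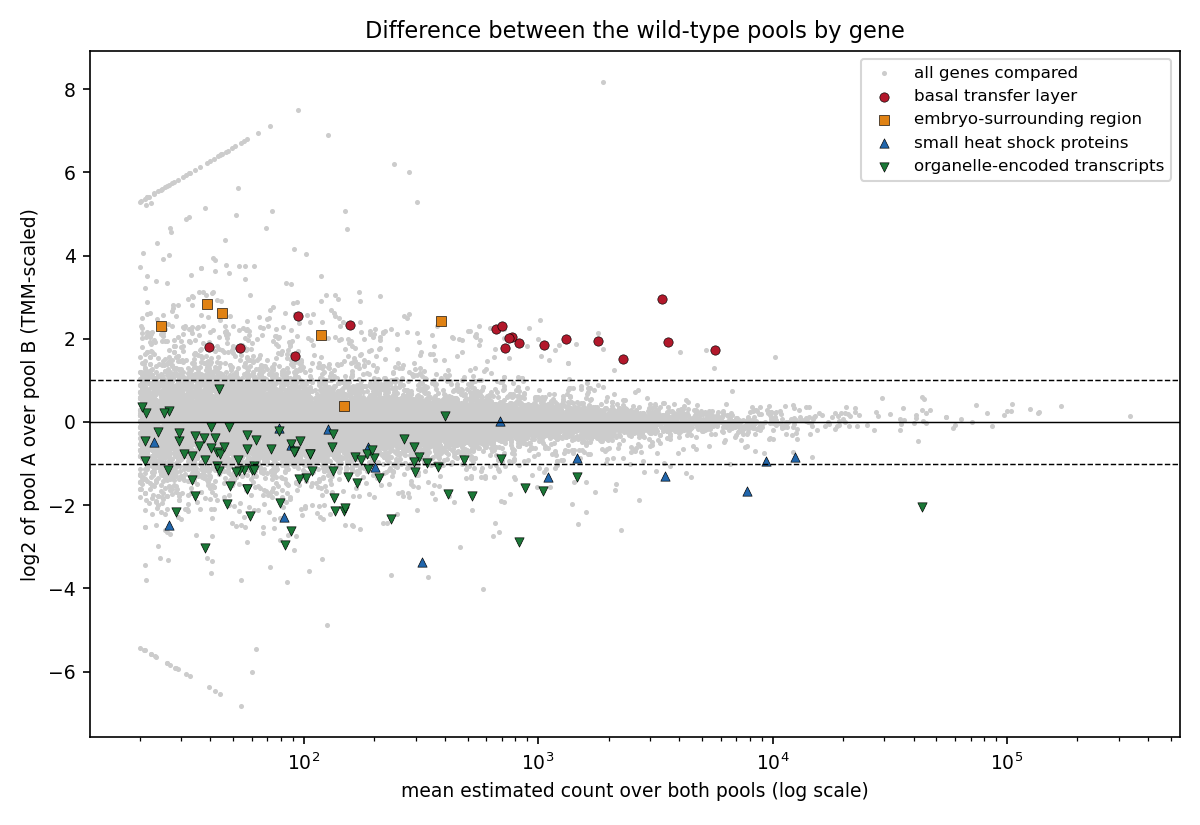
Log2 difference of pool A over pool B against the mean estimated count (log scale) for 20841 genes in grey, with 4 lists in colour and dashed lines at 2-fold. Points spread widely at low counts, the basal transfer layer genes lie above 2-fold in pool A, and most genes of the organelle-encoded list lie below 0.

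Genes of the basal transfer layer formed the clearest block. All 18 listed were past 2-fold higher in pool A, between 1.51 and 2.96 on the log2 scale with a median of 1.93, beside 4.07% of all genes compared. Their summed FPKM was 4535 in pool A and 1266 in pool B, a ratio of 3.58. The cysteine-rich peptide gene betl-9 (GRMZM2G087413) had 1162 FPKM in pool A and 358 in pool B, and betl1c (GRMZM2G082799) 668 in pool A and 237 in pool B. The antifungal peptide gene bap2 (GRMZM2G152655) had 470 FPKM in pool A and 127 in pool B. The maternally expressed gene meg1 (GRMZM2G354335) had 158 FPKM in pool A and 39.2 in pool B. The cell wall invertase mn1 (GRMZM2G119689), which splits sucrose as it arrives from the mother plant, had 193 FPKM in pool A and 25.1 in pool B, a log2 difference of 2.96 with a counting interval of 2.85 to 3.08. The response regulator tcrr-1 (GRMZM2G016145) had 28.8 FPKM in pool A and 5.77 in pool B. In bulk tissue, fewer cells of a type and less RNA per cell cannot be told apart.

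Genes of the embryo-surrounding region, which lies at the base of the endosperm around the embryo, stood on the same side. Of 6 genes, 5 were past 2-fold higher in pool A, beside 4.07% of all genes compared, and the median was 2.36. Their summed FPKM was 120 in pool A and 25.4 in pool B. ESR2 (GRMZM2G315601) had 67.4 FPKM in pool A and 12.7 in pool B, and the CLE peptide gene ESR3 (GRMZM2G140302) had 9.26 in pool A and 1.19 in pool B. The marker zag2 of maternal tissue had 9.72 FPKM in pool A and 5.22 in pool B.

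The counts of the other cell type lists are read beside the 7.42% of all genes compared that passed 2-fold. Of the 6 aleurone genes kept on the list none passed, and their summed FPKM was 314 in pool A and 311 in pool B. Among them pac1 (GRMZM2G058432), a regulator of anthocyanin colour, had 110 FPKM in pool A and 103 in pool B. The cell division list takes in core histones. None of its 53 genes compared passed 2-fold, with a median of −0.03. Its summed FPKM was 7749 in pool A and 8259 in pool B. The starchy endosperm list takes in the whole zein class, which gave 28 of its 34 genes compared. Of these 34 genes, none was 2-fold higher and 2 were lower in pool A, a count near the background of 3.35% lower. Their median was −0.13, while the summed FPKM of the list was the higher in pool A, with 71057 against 67215 in pool B. The 24 genes of the embryo list had a summed FPKM of 909 in pool A and 1064 in pool B. Most of it came from 1 gene, oleosin 16 kDa (GRMZM2G337229), with 548 in pool A and 596 in pool B. The median of the list was only 3.345 FPKM in pool A and 4.815 in pool B, and 14 genes reached 1 FPKM in both. Of the 14 embryo genes compared, 2 were higher and 2 lower in pool A by 2-fold, and the embryo regulator lec1 (GRMZM2G011789) had 47.7 counts in pool A and 0 in pool B, at least 14.6-fold higher in pool A against a limit of 3 counts in pool B. Whether embryo tissue entered the pools was not tested. Of 12 green tissue genes compared, from 43 listed, 5 were past 2-fold lower and none higher in pool A, beside 3.35% lower among all genes compared. Their median was −0.51, and the summed FPKM of the list was only 32.7 in pool A and 55.6 in pool B.

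Uncharacterised proteins stood beside the basal transfer layer genes. Of the 28 genes among the highest 1000 that were higher in pool A, 9 were on the basal transfer layer list and 18 were uncharacterised proteins on no list. Uncharacterised proteins made up 167 of these 1000 genes. At all levels, 417 of the 8610 compared were 2-fold higher in pool A, beside 848 of all 20841 genes compared. The highest of the 18 were GRMZM2G406552, with 1997 FPKM in pool A and 681 in pool B, and GRMZM2G066546, with 1050 in pool A and 332 in pool B. Both were named after their values were seen. GRMZM2G115340 and GRMZM2G179248, both counted in the 18, had identical values of 234 FPKM in pool A and 88.7 in pool B. Reads of these models cannot be told apart.

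With names required, the 12 highest log2 differences at a mean of at least 100 counts were led by a lipid binding protein (GRMZM2G136364), with 252 counts in pool A and 1 in pool B, a subtilase (GRMZM2G039538), with 480 in pool A and 5 in pool B, and an ATPase 2 (GRMZM2G028129), with 554 in pool A and 7 in pool B. Also among the 12 were a sucrose transporter of the SUT1 kind (GRMZM2G087901), with 8.67 FPKM in pool A and 1.11 in pool B, and an early nodulin-like protein (GRMZM2G010762), with 20 in pool A and 3.22 in pool B. A gene outside this rule and noted after its values were seen, GRMZM2G150091, has a thioredoxin KEGG entry and had 310 FPKM in pool A and 1 in pool B, with 3768 counts in pool A and 11 in pool B.

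Genes that were lower in pool A formed other groups. Of 16 small heat shock protein genes compared, 7 were past 2-fold lower and none higher in pool A, with a median of −0.90, beside 3.35% of all genes compared. These chaperones hold unfolded proteins. Their summed FPKM was 1822 in pool A and 3925 in pool B. The 17.8-kDa class II gene (GRMZM2G034157) had 579 FPKM in pool A and 1124 in pool B, and hsp22 (GRMZM2G007729) had 253 in pool A and 806 in pool B. Of 22 genes for HSP70, HSP90 and HSP101, 4 were past 2-fold lower and none higher in pool A. They include hsp101 (GRMZM2G360681), with 15.1 FPKM in pool A and 92.8 in pool B, heat shock cognate 70 kDa protein 2 (GRMZM2G428391), with 1.98 in pool A and 32.1 in pool B, and heat shock protein 82 (GRMZM5G833699), with 4.39 in pool A and 29.9 in pool B. The endoplasmic reticulum chaperone BiP2 (GRMZM2G114793) had 80.1 FPKM in pool A and 192 in pool B. Its class as a whole did not follow. Of 160 endoplasmic reticulum folding and translocation genes compared, 7 (4.375%) passed 2-fold, beside 7.42% of all genes compared. Of these, 5 were lower and 2 higher in pool A, and the class median was −0.004. The heat shock lists, the organelle-encoded list and the split of zeins into alpha and other were drawn up after the values were seen.

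Genes whose protein description gives mitochondrion, chloroplast or plastid in parentheses, the organelle-encoded list, were also mostly lower in pool A. Descriptions that name an organelle only in another form, such as chloroplastic, were not taken. Which genome the RNA of the listed genes came from was not tested. Of 93 compared, from 264 listed, 43 were past 2-fold lower and none higher, beside 3.35% lower among all genes compared, with 87 below a difference of 0 and a median of −0.92. They held 0.194% of the counts in pool A and 0.687% in pool B. A single model added by the authors, BGI_novel_G003004 (described as mitochondrial ribosomal protein S2), gave 18173 counts in pool A and 69057 in pool B. Without it the mitochondrial part of the list held 0.0330% in pool A and 0.0798% in pool B. The organelle ribosomal protein class without it held 0.410% in pool A and 0.478% in pool B. The plastid part of the list held 0.0360% in pool A and 0.0807% in pool B. A model described as cytochrome c oxidase subunit 2 (GRMZM2G109332), with no organelle named and so outside the list, went the other way, with 11.04 FPKM in pool A and 1.71 in pool B. Reads shared between organelle transcripts and nuclear copies were not tested.

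**Figure D5:**
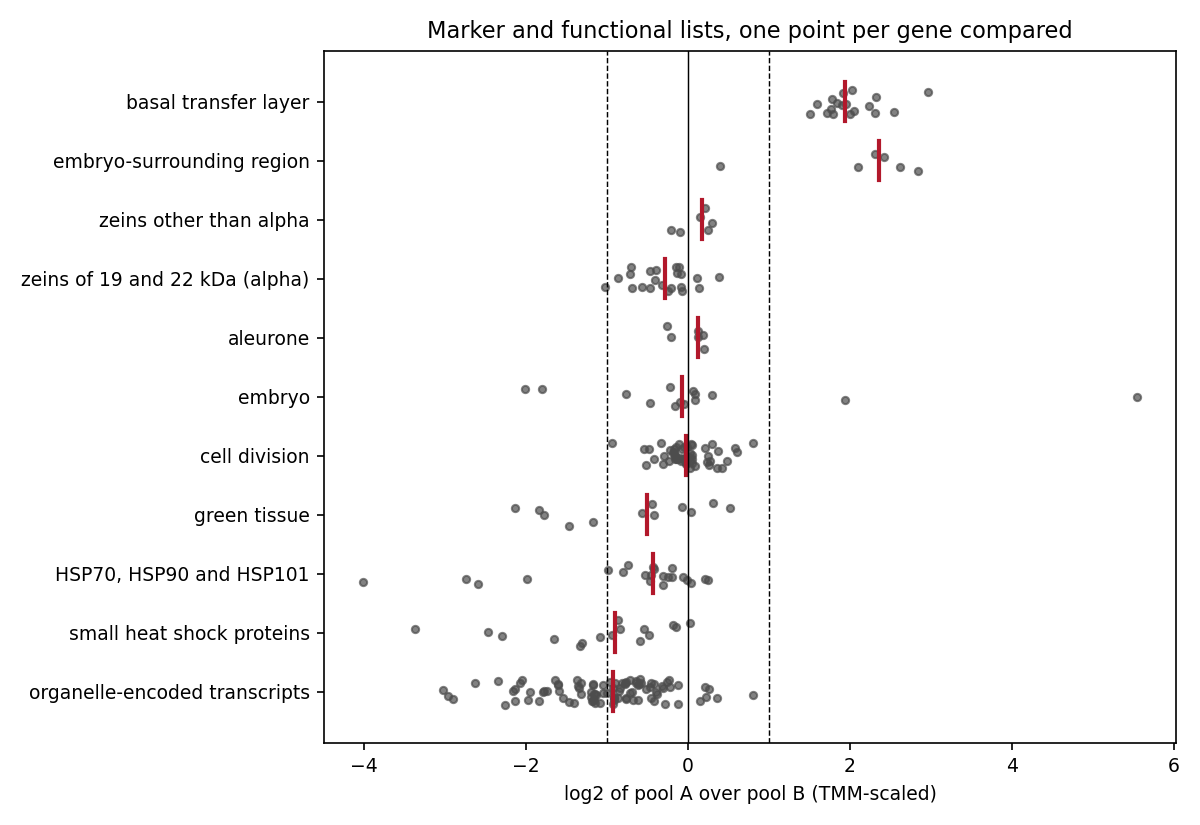
Log2 difference of pool A over pool B for the genes compared in 11 lists, with a red bar at each median and dashed lines at 2-fold; the vertical position of a point within its list carries no value. The basal transfer layer median is 1.93, the small heat shock protein median −0.90 and the organelle-encoded median −0.92, while the aleurone and cell division medians lie near 0.

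Among defence and stress genes, the chymotrypsin inhibitor CI-1B (GRMZM2G012806) had 271 FPKM in pool A and 689 in pool B. Another gene, described as the inhibitor CI-1C (GRMZM2G058358), had 52.5 in pool A and 45.4 in pool B. MBP-1 (GRMZM2G325118), which encodes an antimicrobial peptide, had 60.2 FPKM in pool A and 94.2 in pool B. Outside the protease inhibitor and defence class, a NAC domain protein (GRMZM2G014653), classed as a transcription factor, had 45.8 FPKM in pool A and 173 in pool B. The lowest log2 difference by the naming rule was that of a ribosome-inactivating protein (GRMZM2G063536). It was classed among other named proteins and had 8 counts in pool A and 244 in pool B. The protease inhibitor and redox classes as wholes held more genes higher than lower in pool A. So did all genes compared, with 848 higher and 698 lower, and the redox split was near that background. Of 53 protease inhibitor and defence genes compared, 13 (24.5%) passed 2-fold, 10 of them higher and 3 lower in pool A, beside 7.42% of all genes compared. Of 345 redox genes, 46 (13.3%) passed 2-fold, 26 higher and 20 lower in pool A. Of 86 histone genes, which overlap the cell division list, none passed 2-fold.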

How the data were processed

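Tables of the 2 wild-type libraries were used, each from 1 pool. The expected counts per gene were estimated by the authors and deposited without normalization, and FPKM values were deposited by the authors with the same tables, per the file headers. HISAT, Bowtie2, RSEM and GATK are named in the submitters' processing notes, without version or role. The genome build was not given in the sources used here. Genes missing from a table were taken as 0, 32025 genes were listed in either pool, and the counts were whole (within 0.005) for 77.2% of genes in pool A and 77.9% in pool B. Depth was 14562359 counts in pool A and 13119658 in pool B, where 3 counts, the limit that a count of 0 allows, are 2.06e-05% and 2.29e-05% of the total.

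Functional classes were assigned by keywords in the Nr description for 7292 genes, in the KEGG entry for 4585 and in the RefSeq symbol for 43, with an order of precedence. KEGG entries can mislead: that of gz27 names a pyruvate dehydrogenase component. A keyword class also holds some members of another kind, such as a calmodulin in the cell wall class. RefSeq names (assembly Zm-B73-REFERENCE-NAM-5.0) matched 17274 genes by identifier and 5428 by protein accession. Members, lists and the naming rule were chosen with earlier results of these data known. Lists were drawn by name patterns, and gene models taken through a shared name were left out by hand. This touched the aleurone, embryo, green tissue, starchy endosperm and small heat shock protein lists. Genes named were the 25 of highest mean FPKM, the 10 of highest count, the 3 leading genes of each class and list, a set of known endosperm genes, and the 12 highest and 12 lowest log2 differences at a mean of at least 100 counts. Other genes named were chosen after their values were seen.

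Counts were scaled with TMM factors of 0.992 for pool A and 1.01 for pool B (edgeR 4.0.16, R 4.3.3), 1 count was added, and differences were taken over genes with a mean of at least 20 counts. Intervals (95%) are exact binomial for ratios and Wilson for shares, and cover counting error only. Alternatives included DESeq2 1.42.0 size factors, FPKM ratios, other filters and other class rules. Tables were handled with Python 3.11.15, pandas 2.3.3, numpy 2.4.6 and scipy 1.17.1, and figures drawn with matplotlib 3.10.9.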

Additional observations from a re-analysis of the deposited data

How the results depend on the processing

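Class shares moved with the measure. By summed FPKM, mean shares over both pools went to 8.81% for zeins (6.18% by counts), 1.79% for starch synthesis (3.03%), 0.393% for basal transfer layer peptides (0.143%), 12.5% for cytosolic ribosomal proteins (8.42%) and 6.10% for glycolysis (7.57%). Without the 10 most abundant genes, zeins held 2.39%, starch synthesis 2.53%, cytosolic ribosomal proteins 9.36% and glycolysis 3.64%. From the Nr description alone, cytosolic ribosomal proteins held 5.62%, heat shock proteins 2.53% (3.11% by the rule used) and glycolysis 6.76%. With no precedence between classes, cytosolic ribosomal proteins held 9.33% and heat shock proteins 3.62%. Without the genes the authors added, zeins held 5.76% and cytosolic ribosomal proteins 8.63%. By FPKM, 510 genes held the first 50%, against 769 by mean counts.

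With 1 pool left out, shares ranged from 6.002% to 6.35% for zeins, 2.85% to 3.21% for starch, 0.0633% to 0.223% for basal transfer layer peptides, 8.32% to 8.51% for cytosolic ribosomal proteins, 2.82% to 3.41% for heat shock proteins and 7.003% to 8.14% for glycolysis, and the genes holding the first 50% from 735 to 792. The number of genes past 2-fold was 1546 with total counts alone, 1530 with DESeq2 size factors and 805 from FPKM with a pseudocount of 1. It was 6506 with no count filter, 486 at a mean of at least 100 counts and 378 past 4-fold; fewer or more genes enter these by construction. The 18 basal transfer layer and 5 embryo-surrounding region genes stayed in number under both other scalings and by FPKM. Leaving BGI_novel_G003004 out of the organelle ribosomal class was chosen after seeing the data. No paired analysis was possible because the comparison is between the 2 pools of 1 group. Depth limits the genes of 20 to 50 counts, where the median counting SD of a log2 ratio was 0.373.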
